A study of Mus musculus with 6 samples.

Results

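The dominant piRNAs of mouse sperm are the 52 piRNA features, of 8190 in the deposited table (0.635%), whose mean level over the 6 samples was 1000 RPM or more. RPM is the number of reads per 1000000 reads of the piRNA table itself. The 6 samples are ripe sperm collected from the cauda epididymis, where sperm are stored before ejaculation, of 8-week-old male C57BL/6 mice (C57BL/6J in the protocol). In the labels, 3 samples are from normal mice and 3 from stress-induced depressed mice, called normal and stress samples here, and no genotype change or drug is named for either group. The labels do not describe the stress procedure, do not give a measure of depression, and do not say whether a sample is 1 animal or a pool, and a p-value here can therefore reflect technical as well as biological spread between samples. The comparison asks whether sperm of stressed, depressed males carries a different set of abundant piRNAs. Members were chosen by their mean level over both groups together, so the levels and shares below are descriptions. Of the 52, 14 had a mean under 1000 RPM in 1 group, 12 of them in stress and 2 in normal samples, and passed only through the other group, so for these the difference between the groups is not independent of the choice.

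PIWI-interacting RNAs (piRNAs) are short single-stranded RNAs that guide PIWI proteins, a branch of the Argonaute family, to complementary transcripts. In the mouse male germ line they silence transposons in fetal gonocytes and, as the large pachytene group, appear at meiosis in spermatocytes and persist in round spermatids. Most are lost as spermatids mature, and mature sperm keep a remnant beside tRNA fragments and miRNAs. An identifier such as mmu_piR_032974 names a catalogued mouse piRNA sequence and carries no gene function. The deposited table pairs the identifiers with no sequence, gene or position, so the members are described by name, level and pattern only, and no 2 of the 52 had consecutive identifiers.

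The piRNA table held between 72652 and 100913 reads per sample, recovered from the RPM steps, and between 3107 and 3795 piRNAs were detected per sample. A single read was worth 9.91 to 13.8 RPM, and each dominant piRNA had at least 31 reads in every sample, so all 52 were detected everywhere and all 52 passed the filter on low values. Against this, 947 of the 3152 piRNAs tested were detected in every sample. Normal replicate 3 stood apart in the ratio of the 2 tables, with 28.1 piRNA reads per 1000 miRNA counts against 50.1 to 96.5 in the other samples. Its 86194 piRNA reads lay within the range of the others, whereas its 3067208 miRNA counts exceeded the 1010203 to 1522849 of the others. Across the dominant piRNAs its log2 levels correlated at r = 0.903, 0.935 and 0.902 with those of stress replicates 1 to 3. With normal replicates 1 and 2 they correlated less, at r = 0.876 and 0.879. Those 2 normal samples correlated with each other at r = 0.953, and the stress samples with each other at r = 0.972 to 0.984. These r are across 52 piRNAs, which share libraries and are not replicates. No sample copied another, since even the most alike samples gave a chi-square of 6.78 per degree of freedom over their reads.

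The label of the samples as sperm was checked on the miRNA table of the same libraries. All 12 listed miRNAs of the male germ line were detected, with a summed level of 4499 to 6434 CPM (counts per 1000000 miRNA counts) in normal and 4560 to 5533 CPM in stress samples. The largest part was miR-881-3p, at 3129 to 4660 CPM in normal and 2900 to 3743 CPM in stress samples. Within this list miR-34b-5p, miR-34c-5p, miR-34c-3p, miR-741-3p, miR-743a-3p and miR-743b-3p were higher in each stress sample than in each normal sample. miR-871-3p was lower in each stress sample, and the others overlapped. All 5 epithelial miRNAs, the miR-200 family that the epididymal lining expresses, were detected too, at 11839 to 16970 CPM in normal and 28344 to 31395 CPM in stress samples. The 4 smooth muscle and endothelial miRNAs summed to 2418 to 4593 CPM in normal and 8335 to 9822 CPM in stress samples, and the 4 leukocyte miRNAs to 37.7 to 163.8 and 205.6 to 446.4 CPM. The 5 red blood cell miRNAs overlapped between the groups (329.0 to 961.9 and 255.4 to 796.4 CPM). The summed levels of the epithelial, the smooth muscle and endothelial, and the leukocyte lists were thus higher in each stress sample, while single miRNAs such as miR-141-3p, miR-142a-3p and miR-142a-5p overlapped between the groups. The part of these cells in the piRNA differences below was not tested.

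A handful of piRNA features made up most of the signal of the piRNA table. The 52 dominant piRNAs took 74.9%, 71.4% and 80.5% of the piRNA signal in normal replicates 1 to 3 and 82.1%, 81.9% and 83.6% in stress replicates 1 to 3. The most abundant, mmu_piR_032974, alone took 30.1% on average, the 5 most abundant 52.2%, and the 13 members at 10000 RPM or more 68.2%. Below these, 20 members lay between 2000 and 10000 RPM and 19 between 1000 and 2000 RPM. Between 4 and 7 piRNAs were enough to hold 50% of the signal of a sample.

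**Figure D1:**
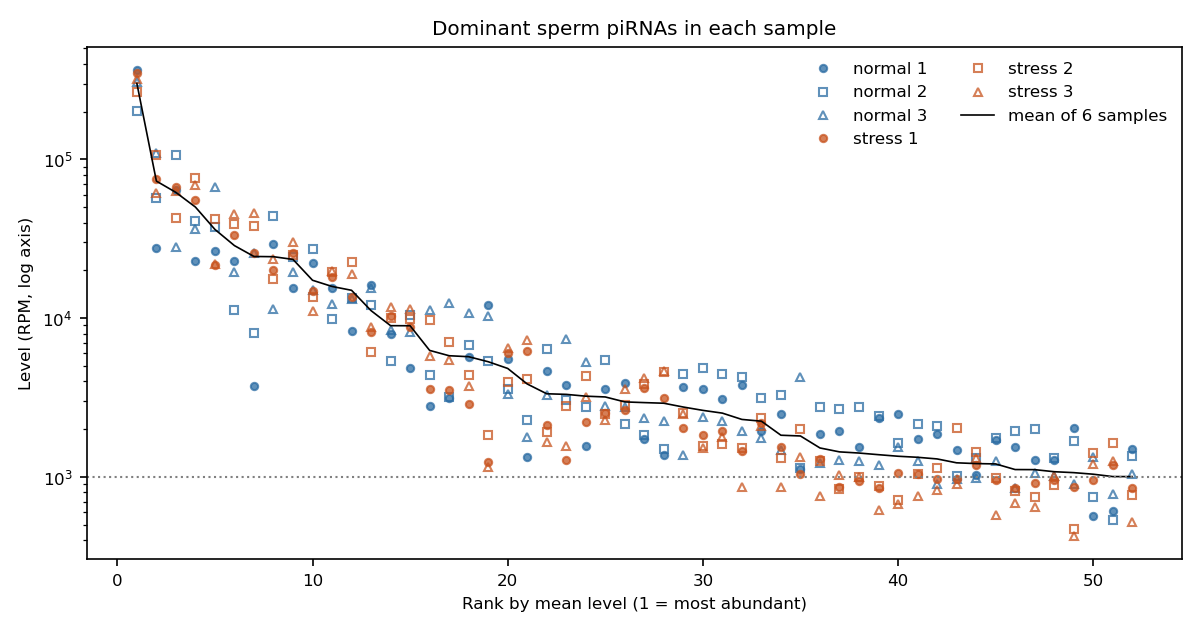
Level of each of the 52 dominant piRNAs in the 6 samples (RPM, log axis) against its rank by mean level; points are samples, the line is the mean of the 6 samples and the dotted line marks 1000 RPM. Levels drop from 300675 RPM at rank 1 to 72967 RPM at rank 2 and then decline without another such step.

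The joint share was 75.6% ± 4.62 (SD, n = 3) in normal and 82.5% ± 0.952 in stress samples, a difference of 6.91 percentage points. The groups did not overlap, the nearest values being 80.5% in normal replicate 3 and 81.9% in stress replicate 2, and no test was made of a sum over members. With mmu_piR_032974 taken out of both the members and the total, the share was 60.6%, 64.2% and 72.0% in normal and 72.4%, 75.4% and 76.0% in stress samples, still without overlap but by a thin margin. Per 1000 miRNA counts the dominant piRNA reads numbered 50.9, 48.9 and 22.6 in normal and 79.2, 41.1 and 60.1 in stress samples, which overlapped. The higher joint share did not mean that most members were higher: 21 members had a higher mean in stress samples, adding 15.4 percentage points, and 31 had a lower mean, together −8.50 percentage points. The 4 largest gains, those of mmu_piR_012107, mmu_piR_027673, mmu_piR_034793 and mmu_piR_032974, came to 10.002 percentage points.

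**Figure D2:**
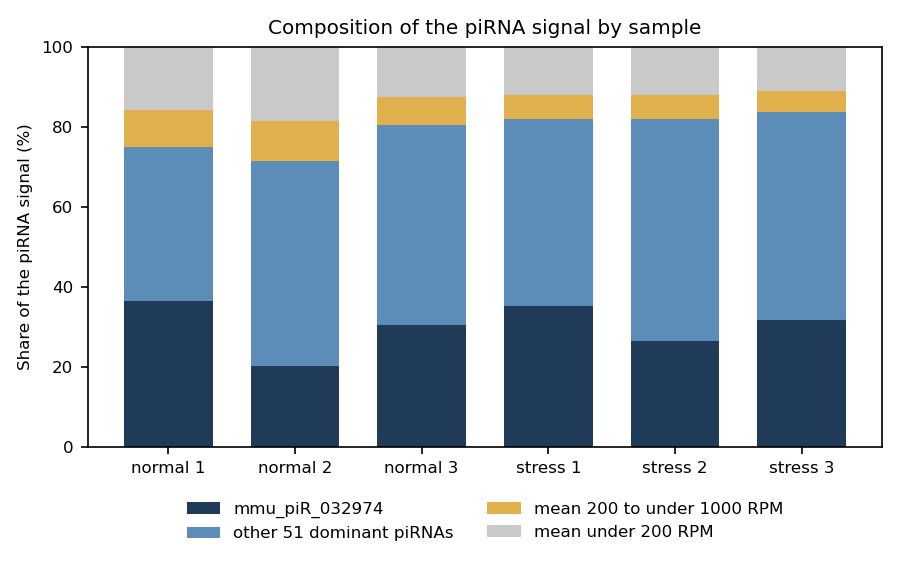
Share of the piRNA signal (%) in each sample, stacked by class: mmu_piR_032974, the other 51 dominant piRNAs, piRNAs with a mean of 200 to under 1000 RPM, and those under 200 RPM. The dominant classes together reach 71.4% to 80.5% in normal and 81.9% to 83.6% in stress samples.

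The leading piRNA, mmu_piR_032974, was at 363671, 200961 and 305474 RPM in normal replicates 1 to 3 and at 351144, 264516 and 318284 RPM in stress replicates 1 to 3. Normal replicate 2 was lowest and normal replicate 1 highest, so the normal range enclosed every stress sample, and the log2 fold change was 0.14 ± 0.47 SE (adjusted p = 0.91, limma). That direction turned to −0.11 without normal replicate 2.

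The next members varied more between normal samples than between the groups. mmu_piR_000691 was at 27706, 57429 and 109288 RPM in normal and 75739, 106212 and 61430 RPM in stress samples. mmu_piR_038322 was at 63837, 106025 and 28239 RPM in normal and 67365, 43043 and 63040 RPM in stress samples. In normal sperm mmu_piR_000691 was thus highest in replicate 3, where mmu_piR_038322 was lowest. mmu_piR_000362 shared the low value of normal replicate 3, at 29269, 44239 and 11405 RPM in normal and 20186, 17639 and 23578 RPM in stress samples. mmu_piR_028356 peaked in normal replicate 3, at 26415, 37756 and 66919 RPM in normal against 21761, 42309 and 22064 RPM in stress samples. The groups overlapped for all 4, and none passed the test in limma (adjusted p = 0.73 to 0.99). Without a filter on low values, limma called mmu_piR_000691 (adjusted p = 2.6e-06) and mmu_piR_028356 (adjusted p = 0.00016). Their log2 fold changes were the same with and without the filter, 0.50 and −0.57 (SE 0.49 and 0.43 with the filter). These 2 calls thus came without a larger difference, and the reason for them was not tested.

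Of the other 5 among the 10 most abundant, 4 were higher in every stress sample than in every normal sample. mmu_piR_012107 was at 23073, 40919 and 36244 RPM in normal and 55077, 76605 and 68505 RPM in stress samples, a mean of 33412 ± 9254 RPM (SD, n = 3) against 66729 ± 10873 RPM (log2 fold change 1.03 ± 0.37 SE, adjusted p = 0.23, limma). mmu_piR_034793 was at 22937, 11286 and 19398 RPM in normal and 33583, 39206 and 45394 RPM in stress samples, 2.20 times the normal mean (1.19 ± 0.36, adjusted p = 0.20, limma). Both sets of stress values lay clear of the normal range. Neither difference passed the threshold in limma on RPM with the filter on low values. Both were called by DESeq2 on recovered reads (adjusted p = 0.00048 and 0.00062) and by limma without that filter (adjusted p = 5.9e-23 and 8.1e-20). The limma fold changes were the same with and without the filter, so these last p-values came without a larger difference.

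mmu_piR_027673 had the widest spread of all members in normal samples, at 3723, 8097 and 25721 RPM, and was at 25725, 37910 and 45628 RPM in stress samples. Its highest normal and lowest stress values almost touched, and the log2 fold change was 1.95 ± 0.57 SE (adjusted p = 0.20, limma). Without normal replicate 3 it was 2.69 (adjusted p = 0.039, limma), past the threshold, and without normal replicate 1 it was 1.30 (adjusted p = 0.55, limma). mmu_piR_004086 was at 15599, 24292 and 19619 RPM in normal and 25904, 25024 and 30254 RPM in stress samples, separated by a thin margin (0.47 ± 0.32, adjusted p = 0.69, limma; 0.031 in DESeq2). The remaining one, mmu_piR_036540, lay the other way, at 22407, 27100 and 14989 RPM in normal and 14864, 13501 and 11135 RPM in stress samples (−0.68 ± 0.33, adjusted p = 0.53, limma; 0.0015 without a filter).

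One member changed past the threshold. mmu_piR_032015, at rank 19, fell from 12080, 5341 and 10268 RPM in normal to 1239, 1846 and 1156 RPM in stress samples, on 889, 407 and 885 reads against 125, 141 and 84 reads. The lowest normal value stood well above the highest stress value, and the normal mean of 9230 ± 3487 RPM (SD, n = 3) was 6.53 times the stress mean of 1414 ± 376.9 RPM. The log2 fold change was −2.66 ± 0.36 SE (adjusted p = 0.025, limma with Benjamini-Hochberg adjustment over 3152 piRNAs). It was the only piRNA called in the whole table, so the background was 0.0317% of the piRNAs tested lower and 0.0% higher, and 340 (10.8%) had an unadjusted p under 0.05, 26 of them dominant piRNAs. The change kept its direction under all 17 alternatives, from −3.01 to −2.08, but was not called in limma with a pseudocount of 0.1 (adjusted p = 0.14), with samples aligned on the median (adjusted p = 0.067) or with mmu_piR_032974 left out of the total (adjusted p = 0.077), nor in edgeR scaled to the miRNA total (adjusted p = 0.46).

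The next smallest p-values among members that were higher in stress samples belonged to mmu_piR_000705, at 1345, 2283 and 1798 RPM in normal and 6253, 4151 and 7295 RPM in stress samples. Every stress value exceeded every normal value, with a stress mean 3.26 times the normal mean (log2 fold change 1.70 ± 0.33 SE, adjusted p = 0.19, limma). The adjusted p was 0.38 without normal replicate 1 (limma). The difference was past the threshold without stress replicate 2 (adjusted p = 0.036, limma) and in edgeR on recovered reads with TMM scaling (2.23, adjusted p = 9.8e-06). In all, mmu_piR_000705 was called in 8 of the 11 alternatives with all 6 samples, against 7 for mmu_piR_032015. With 1 sample left out it was called in 1 of 6 fits, against 6 of 6 for mmu_piR_032015. mmu_piR_005109 was at 1372, 1496 and 2239 RPM in normal and 3161, 4570 and 4652 RPM in stress samples (1.29 ± 0.32, adjusted p = 0.20, limma). mmu_piR_003399 was at 1739, 1850 and 2344 RPM in normal and 3657, 3850 and 4212 RPM in stress samples (0.99 ± 0.28, adjusted p = 0.20, limma). mmu_piR_000267 was at 611.5, 538.1 and 777.3 RPM in normal and 1199, 1650 and 1266 RPM in stress samples (1.10 ± 0.32, adjusted p = 0.20, limma). These 3 had narrow ranges within each group and stress means 1.98 to 2.42 times the normal means. Of them, mmu_piR_000267 had a normal mean under 1000 RPM and was a member only through the stress group, so its difference is not independent of that choice.

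On the lower side, mmu_piR_030546 was at 4620, 6444 and 3306 RPM in normal and 2131, 1912 and 1652 RPM in stress samples (−1.29 ± 0.32). mmu_piR_014291 was at 3791, 4239 and 1949 RPM in normal and 1467, 1519 and 867.1 RPM in stress samples (−1.34 ± 0.37). mmu_piR_037613 was at 2337, 2428 and 1183 RPM in normal and 852.2, 877.4 and 619.4 RPM in stress samples (−1.28 ± 0.36). In these 3, as in the next 2, normal replicate 3 was the normal sample nearest to the stress samples. mmu_piR_021513 was at 2487, 1627 and 1543 RPM in normal and 1060, 720.2 and 674.4 RPM in stress samples (−1.20 ± 0.33). mmu_piR_027497 was at 2038, 1693 and 904.9 RPM in normal and 862.1, 471.4 and 426.7 RPM in stress samples (−1.39 ± 0.40). None of these 5 passed (adjusted p = 0.20 each, limma). All 5 were called when only piRNAs of at least 200 RPM were tested (background 19.9%, limma). Their normal means were 2.30 to 2.63 times their stress means. However, mmu_piR_037613, mmu_piR_021513 and mmu_piR_027497 had stress means under 1000 RPM and were members only through the normal group. Their differences are therefore not independent of the choice of members.

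**Figure D3:**
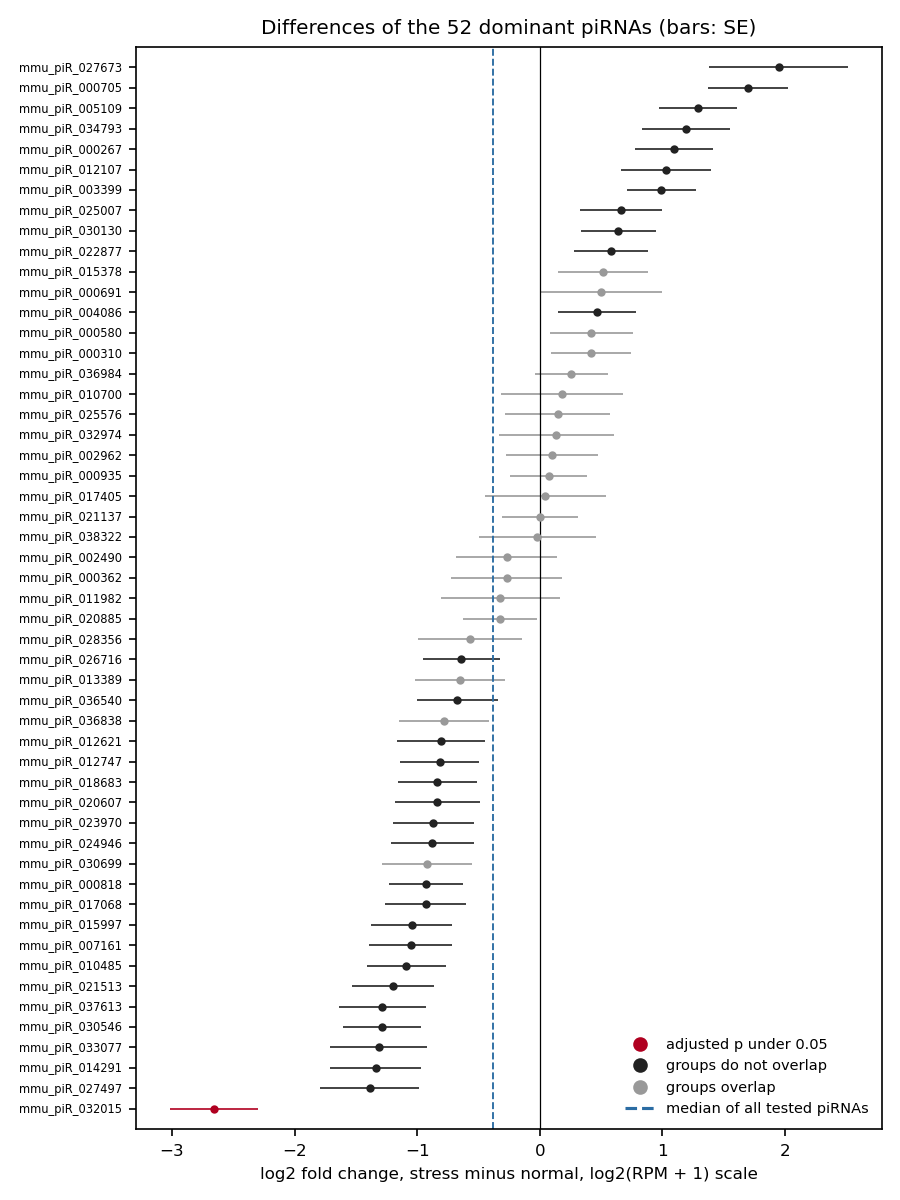
log2 fold change (stress minus normal, log2(RPM + 1) scale, limma) of each of the 52 dominant piRNAs with its SE as bars; red is past the adjusted threshold, black marks members whose groups do not overlap, grey those that overlap, and the dashed line is the median of all 3152 piRNAs tested (−0.38). mmu_piR_032015 at −2.66 lies apart from the other members, which run from −1.39 to 1.95.

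Over the whole set, 31 of 52 members had groups that did not overlap, 11 higher and 20 lower in stress samples. The background among all piRNAs tested was 5.04% higher and 11.3% lower. Among the 38 members with both group means at 1000 RPM or more, 10 were higher and 10 lower without overlap, and the 14 others had passed the rule through 1 group only. By sign alone, 23 members had positive and 29 negative fold changes, with a median of −0.30 against −0.38 over all piRNAs tested. The 194 piRNAs of middle abundance, with a mean of 200 to under 1000 RPM, had 32 positive and 162 negative fold changes, a median of −0.65, and 6 higher and 64 lower without overlap. No test of the difference between these 2 abundance classes was made.

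Because RPM is relative to the piRNA table, these directions depend on the scaling. The TMM factors, which scale samples by the bulk of the piRNAs, were 1.30, 1.37 and 0.976 in normal and 0.829, 0.855 and 0.817 in stress samples, so they separated the groups. With TMM the median of all piRNAs tested moved to 0.09, against −0.44 in edgeR with the piRNA total. Of the members, edgeR with TMM then called 5 higher and 1 lower (background 0.349% higher and 0.0952% lower), against 0 higher and 1 lower in limma on RPM. The 5 were mmu_piR_027673, mmu_piR_000705, mmu_piR_003399, mmu_piR_005109 and mmu_piR_000267, and the 1 was mmu_piR_032015. Scaled to the piRNA total instead, edgeR called mmu_piR_000705 higher and mmu_piR_032015 lower (background 0.0635% and 0.286%). DESeq2 called 9 members higher, among them mmu_piR_012107 and mmu_piR_034793, and 1 lower (background 0.381% and 0.0635%). With TMM, 17 of the 52 members were higher and 8 lower without overlap (background 8.34% higher and 6.09% lower). They include all 11 members that were higher without overlap on RPM and 8 of the 20 lower ones. Per 1000000 miRNA reads, 12 of the 52 were higher and 3 lower without overlap (background 7.17% and 3.39%). These include 8 of the 11 and 3 of the 20.

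In limma with other settings, the members called numbered 3 with a pseudocount of 10 (background 0.444%), 16 without a filter (background 0.208%), 14 when only piRNAs of at least 200 RPM were tested (background 19.9%), and 3 with the replicate number as a block (background 0.159%). Without normal replicate 3, stress replicate 1 or stress replicate 2 they numbered 2, 1 and 2 (background 0.0742%, 0.0768% and 0.113%). With samples aligned on the median 1 member was called (background 0.0317%), and none was with a pseudocount of 0.1, without mmu_piR_032974 in the total, or in edgeR with the miRNA total (background 0.0% each).

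Without overlap in the same direction on all 4 scalings tried (RPM, TMM, miRNA reads, and RPM without mmu_piR_032974) were 8 higher members and 1 lower member (background 4.51% higher and 2.95% lower). The higher ones were mmu_piR_012107, mmu_piR_034793, mmu_piR_027673, mmu_piR_025007, mmu_piR_000705, mmu_piR_003399, mmu_piR_005109 and mmu_piR_000267, of which mmu_piR_025007 is named because of this value. The lower one was mmu_piR_032015. The background on RPM without mmu_piR_032974 was 5.3% higher and 10.9% lower. With normal replicate 3 left out and RPM as deposited, 14 members were higher and 26 lower without overlap (background 7.39% and 23.4%).

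**Figure D4:**
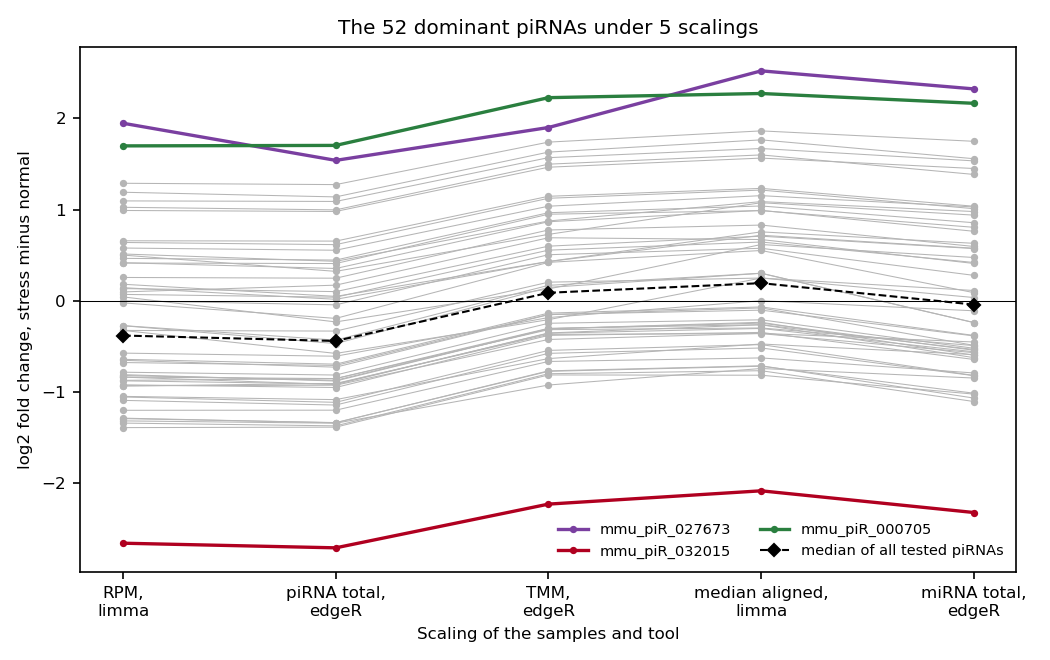
log2 fold change (stress minus normal) of the 52 dominant piRNAs, 1 line each, under 5 combinations of scaling and tool, with the median of all piRNAs tested as black diamonds. The median of all piRNAs tested runs from −0.44 to 0.19 and members move by unequal amounts (mmu_piR_027673 is at 1.95 on RPM and 1.54 in edgeR with the piRNA total), while mmu_piR_032015 is lowest in each, between −2.71 and −2.08.

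Spread between samples exceeded counting error for most members. In normal samples the SD of a member was 5.46 times the SD expected from read counting alone (median of 52, range 1.36 to 46.2), and in stress samples 2.86 times (0.311 to 22.9). On the log2 scale the median SD was 0.49 in normal and 0.27 in stress samples, and 47 of 52 members had the larger SD in normal samples. The members share 3 libraries per group, so this count is not 52 separate observations. Across them, normal replicates 1 and 2 correlated at r = 0.953, and with normal replicate 3 at 0.876 and 0.879. Among the 194 piRNAs of middle abundance the median SDs were 0.51 and 0.45, and 100 had the larger SD in normal samples. The members that varied most within a group were mmu_piR_027673, with a highest normal value 6.91 times the lowest, mmu_piR_017405 and mmu_piR_011982. mmu_piR_017405 was at 3125, 3176 and 12483 RPM in normal and 3528, 7045 and 5464 RPM in stress samples. mmu_piR_011982 was at 1128, 1142 and 4235 RPM in normal and 1041, 2004 and 1335 RPM in stress samples. In both, normal replicate 3 alone was high, while normal replicates 1 and 2 lay close together.

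Grouped by the shape of their 6 values (average linkage on 1 minus Pearson's r of log2 levels, divided into 3 sets after the values were seen), the members formed sets of 29, 20 and 3. The set of 29 took 23.0%, 30.5% and 19.8% of the signal in normal and 16.6%, 15.8% and 15.8% in stress samples. It holds mmu_piR_032015, mmu_piR_038322, mmu_piR_000362 and mmu_piR_036540, and its samples were ordered with normal replicate 2 highest. The set of 20 took 14.6%, 20.2% and 29.6% in normal and 29.5%, 38.9% and 35.0% in stress samples. Normal replicate 3 lay just above stress replicate 1, so the groups overlapped. It holds mmu_piR_000691, mmu_piR_012107, mmu_piR_034793, mmu_piR_027673 and mmu_piR_000705. The set of 3, led by mmu_piR_032974, took 37.3%, 20.7% and 31.2% in normal and 36.0%, 27.1% and 32.8% in stress samples, and also overlapped between the groups. The sets were formed from these same 6 values, so the group differences in their shares are not independent of the grouping. By single samples, normal replicate 2 was the highest of the 6 for 21 members and stress replicate 3 the lowest for 18, whereas stress replicate 1 was highest for 0 members.

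**Figure D5:**
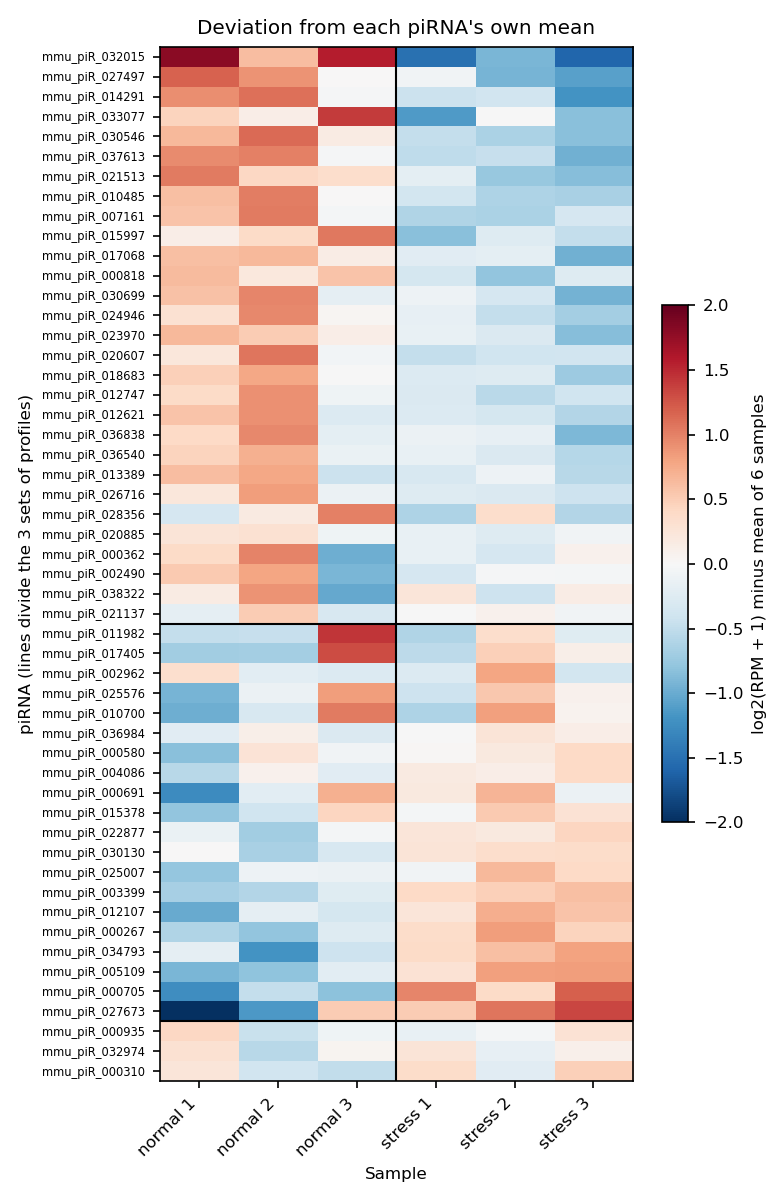
Deviation of each of the 52 dominant piRNAs from its own mean over the 6 samples (log2(RPM + 1), colour scale from −2 to 2), with samples as columns and black lines dividing the 3 sets of profiles. In the set of 29 the medians of normal replicates 1 and 2 are 0.53 and 0.84 and those of the stress samples −0.28, −0.34 and −0.59, while normal replicate 3 lies at −0.03.

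At the 1000 RPM threshold, mmu_piR_000267 and mmu_piR_023970 were the last members, at means of 1007 and 1006 RPM. mmu_piR_023970 was at 1495, 1352 and 1044 RPM in normal and 852.2, 772.6 and 523.0 RPM in stress samples. Just outside were mmu_piR_009321 and mmu_piR_024062, at means of 998.5 and 989.9 RPM, both highest in normal replicate 2 at 1942 and 2021 RPM. Only 33 of the 52 were at 1000 RPM or more in every sample, so the lower end of the list would change with the samples.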

How the data were processed

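Small RNA libraries of 6 sperm samples were used, grouped by disease-state label with replicate numbers from the titles. Per the labels' protocols, sperm RNA was isolated with TRIzol and made into libraries with an Illumina TruSeq RNA kit; Bowtie was used, per the submitters' processing notes. Version, build, piRNA catalogue, read filters and handling of reads that fit several piRNAs: none of these is given in the sources used here, so near-identical piRNAs may share reads. The deposited piRNA values are RPM, which the authors set to a sum of 1000000 in each column of that table. Whole reads were recovered by dividing each column by its smallest value above 0 (100% of values whole within 0.001). The deposited miRNA values are expected counts (92.0% whole), used for totals and markers. The tRNA fragment table was not used here.

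log2(RPM + 1) was tested with limma 3.58.1 (trend) in R 4.3.3 over the 3152 piRNAs at 1 RPM or more in at least 3 of 6 samples, stress minus normal, two-sided, with Benjamini-Hochberg adjustment and a threshold of 0.05. A fold change on this scale can understate changes of rare piRNAs. Alternatives were edgeR 4.0.16 and DESeq2 1.42.0 on recovered reads, other pseudocounts, filters and scalings, each sample left out, and the replicate block. The scripts were tested on simulated data. Members and lists were chosen with earlier results of these data known. Named members were those past the threshold, the 10 most abundant, the 6 smallest p-values in each direction, the 3 largest SDs within a group, the 2 piRNAs on each side of the 1000 RPM limit, and up to 6 called in an alternative. The depth is 72652 to 100913 piRNA reads per sample.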

Additional observations from a re-analysis of the deposited data

How the results depend on the processing

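The only call, mmu_piR_032015, was kept whichever sample was left out (log2 fold change −3.01 to −2.42). Counts of calls depended on the processing, over the whole table and (in brackets) among the 52 members: 14 (3) with a pseudocount of 10, 0 (0) with 0.1, 17 (16) without a filter, 49 (14) with only piRNAs of at least 200 RPM, where 246 were tested, 14 (6) in edgeR with TMM, 11 (2) in edgeR with the piRNA total, 14 (10) in DESeq2, 0 (0) in edgeR with the miRNA total, and 0 (0) without mmu_piR_032974 in the total, an alternative chosen after seeing the data. Where the count was 0, 306, 163 and 323 piRNAs had an unadjusted p under 0.05. With samples aligned on the median the 1 call was mmu_piR_000705, higher. With 1 sample left out the calls numbered 1 to 3 (1 to 2 among members); they were 2 (2) without normal replicate 3, 2 (1) without stress replicate 1 and 3 (2) without stress replicate 2. A change of filter also changes the number of piRNAs tested, and the cause of the differing counts was not tested.

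The replicate block called 5 piRNAs and 3 members, adding mmu_piR_027673 and mmu_piR_000705. Deviations of normal and stress samples with the same number correlated at 0.28, −0.02 and 0.16. For normal replicates 1 and 3 the same number gave the highest r, whereas normal replicate 2 correlated best with stress replicate 1 (0.04). With 3 samples per group these r cannot decide whether equal numbers mark paired samples. The joint shares of the groups did not overlap, so any pairing of the samples gives a higher share in stress in 3 of 3. The mean difference of 6.91 percentage points is likewise the same under any pairing. Neither value can therefore bear on whether the samples are paired.

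The count of members without overlap went from 31 to 15 per 1000000 miRNA reads, and to 40 without normal replicate 3. The background over all piRNAs tested went from 16.4% to 10.6% and to 30.8% in the same settings. The joint share differed by 4.80 to 9.38 percentage points with 1 sample left out. The rule would give 90 members at 500 RPM, 33 at 2000 RPM and 33 at 1000 RPM in every sample. Among the named members the following directions turned, none of them called in the setting where it turned. mmu_piR_038322 (−0.02) was at 0.42 in edgeR with TMM, 0.47 in DESeq2, 0.090 with the miRNA total and 0.55 on the median. It was at 0.018 without mmu_piR_032974, and at −0.54 to 0.42 with 1 sample left out. mmu_piR_000362 (−0.27) was at 0.15, 0.19 and 0.30 with TMM, DESeq2 and the median, and −0.82 to 0.15 with 1 left out. mmu_piR_028356 was at 0.0021 on the median. mmu_piR_017405 (0.04) was at −0.23 in edgeR with the piRNA total and −0.29 to 0.71 with 1 left out, mmu_piR_011982 (−0.32) at 0.11 with the miRNA total, 0.25 on the median and −0.64 to 0.31 with 1 left out. With 1 left out, mmu_piR_032974 ranged from −0.11 to 0.32 and mmu_piR_000691 from −0.0030 to 0.99. Directions of members outside the named ones turned too. For example, mmu_piR_002490 (−0.27) was at 0.17 in edgeR with TMM and 0.30 on the median. mmu_piR_010700 (0.18) was at −0.26 without normal replicate 1.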
